A study of Mus musculus with 30 samples.

Results

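The chemokine family of the mouse colon was described as 60 genes: 38 chemokine ligands, 18 chemokine receptors and 4 atypical chemokine receptors, out of 31023 genes in the deposited table, of which 20430 carry a symbol. They were chosen by symbol alone (Ccl, Cxcl, Cx3cl, Xcl, Ppbp, Pf4, Ccr, Cxcr, Cx3cr, Xcr and Ackr genes), so no measured value entered the choice. Bulk RNA was sequenced at day 56 from the colon of male C57BL/6 mice aged 8 to 12 weeks, wild type (WT) or with Smox deleted (labelled Smox-/-, here Smox), 3 mice per group. Smox encodes spermine oxidase, which turns spermine into spermidine. What was deleted within the gene is not stated in the labels.

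The 10 groups combine genotype, treatment and tissue. Untreated WT and untreated Smox mice received neither agent. The WT Spd and Smox Spd groups drank 14 mM spermidine for 56 days. AOM-DSS mice received azoxymethane (AOM), a carcinogen, at 12.5 mg/kg into the peritoneum, and then 3 cycles of 4% dextran sulfate sodium (DSS), which damages the gut epithelium. The DSS cycles lasted 5 days and began on days 5, 26 and 47. Their non-tumor tissue (NT) is here as WT AOM NT, Smox AOM NT and, with spermidine, WT AOM Spd NT and Smox AOM Spd NT. Tumor tissue (T) is here as WT AOM Spd T and Smox AOM T. WT AOM tumors and Smox AOM Spd tumors were not analysed here, so the tumors of the genotypes also differ in spermidine. The labels tie no tumor to the non-tumor tissue of any mouse.

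Chemokines are small secreted proteins that guide leukocytes by binding G protein-coupled receptors on their surface. CXC ligands with an ELR motif act through CXCR2 on neutrophils, the interferon-induced CXC ligands through CXCR3 on T cells, and many CC ligands through CCR1 and CCR2 on monocytes, macrophages and T cells. In the gut, epithelial ligands such as CCL25, CCL28 and CX3CL1 serve steady-state traffic, CCL19, CCL21 and CXCL13 organise lymphoid tissue, and atypical receptors bind chemokines without the usual signal.

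Values are CPM, the estimated counts of a gene per 1000000 of the effective size of its library. That size is the library's total over the genes that passed the filter on low counts, times its TMM scaling factor. The measure "CPM per kb" divides CPM by the kilobases of exon of a gene where levels of different genes are compared. Of the 60 genes, 56 passed the filter on low counts and were tested among 19558 genes with the edgeR quasi-likelihood test, and Benjamini-Hochberg adjustment ran over all 19558. A gene is said to rise or fall where its adjusted p was under 0.05. Where a call is said to be lost without a named library, leaving out other libraries could end it too. Cxcl15, Ccl1, Cxcr1 and Ccr3 were not tested, and Ccr3 had under 10 counts in every library. Folds are those of the model, with the standard error (SE) on the log2 scale, and "average" means the mean of log2 differences over matched groups. In bulk tissue, fewer cells of a type and less RNA per cell cannot be told apart.

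The libraries held 33060607 to 81011304 counts, and the 60 genes together took 0.0206% to 0.0869% of them. Smox RNA did not separate the genotypes (18.6 to 68.7 CPM in 15 Smox and 25.1 to 169 CPM in 15 WT libraries), while Eif3j1, chosen after its values were seen, did (2.20 to 4.93 against 27.6 to 48.9 CPM). A handful of libraries stood apart. WT untreated replicate 3 had 21.7% mitochondrial counts, against 2.57% to 9.90% in the other 29, and a sum of 9040 CPM over 8 skeletal muscle genes, against 28.6 and 35.7 in the other WT untreated libraries. Smox AOM Spd NT replicate 1, labelled non-tumor, had 250 CPM over the lymphatic list, against 18.1 and 21.2 in its group, and resembled tumors in several members given below. Genes of that list moved in both directions in tumors. Smox Spd replicate 1 had 251 CPM over the T and NK cell genes, against 44.4 and 60.6 in its group. Colon epithelial genes summed to between 10600 and 45700 CPM in all libraries.

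The promoters of 5 members are shown first because these genes come from separate clusters on chromosome 5 and differ in how they moved. Cxcl5, Ppbp, Pf4, Cxcl3, Cxcl15, Cxcl1 and Cxcl2 lie within positions 90759360 to 90905938 of chromosome 5 (GRCm38), and Cxcl9, Cxcl10 and Cxcl11 within 92321347 to 92365485. RefSeq promoter sequences (GRCm38.p6, 250 bases before to 50 after the start) were found for 46 of the 60 members. Capitals mark matches, on either strand, to the NF-kappa-B consensus, present in 4.51% of 32851 promoters, or to the core of the interferon-stimulated response element, GAAANNGAAA, present in 3.44%. The first 4 run from 130 bases before the start to the base before it, and Cxcl10 from 225 to 80 bases before it.
Cxcl1 chr5:90891115-90891244 plus strand: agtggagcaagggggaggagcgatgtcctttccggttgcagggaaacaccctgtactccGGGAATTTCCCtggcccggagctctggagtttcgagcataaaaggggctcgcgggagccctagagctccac
Cxcl2 chr5:90903769-90903898 plus strand: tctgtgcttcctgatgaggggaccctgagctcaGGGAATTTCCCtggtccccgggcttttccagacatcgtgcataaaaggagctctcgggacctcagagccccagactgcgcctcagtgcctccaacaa
Cxcl3 chr5:90785971-90786100 plus strand: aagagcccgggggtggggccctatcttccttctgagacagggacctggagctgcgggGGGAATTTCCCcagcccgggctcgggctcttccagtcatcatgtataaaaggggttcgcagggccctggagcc
Ppbp chr5:90768388-90768517 plus strand: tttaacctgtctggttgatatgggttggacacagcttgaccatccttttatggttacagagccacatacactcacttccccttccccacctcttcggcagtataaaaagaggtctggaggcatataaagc
Cxcl10 chr5:92348969-92349114 minus strand: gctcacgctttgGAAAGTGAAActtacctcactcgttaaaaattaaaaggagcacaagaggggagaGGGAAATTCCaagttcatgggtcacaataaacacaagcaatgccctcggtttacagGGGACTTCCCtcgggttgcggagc
Cxcl1, Cxcl2 and Cxcl3 carry the same 11 bases, GGGAATTTCCC, in which the consensus matches on both strands with an overlap. These 3 genes are close paralogs. The Ppbp window holds no match to either pattern. The Cxcl10 window holds 1 match to the interferon element and 2 to the NF-kappa-B consensus. In all, 10 of the 46 members had a match to the NF-kappa-B consensus (also Ackr2, Ccl20, Ccl27a, Ccl9, Ccr3 and Ccr6) and 3 to the interferon core (also Ccl19 and Cxcl14). A match describes letters and not a bound site.

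Per length, the highest members over all 30 libraries were Ccl6 at 69.9, Ccl28 at 29.1, Cx3cl1 at 24.2, Cxcl5 at 19.4 and Ccl21a at 18.5 CPM per kb. At the other end, 23 members averaged under 1 CPM. The group with the highest mean was Smox AOM NT or Smox AOM T for 13 members each, and Smox untreated or Smox Spd for 10 each. The group with the lowest mean was WT untreated for 19 members, WT AOM Spd T for 15 and WT AOM Spd NT for 10. These orders are descriptions without a test.

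**Figure D1:**
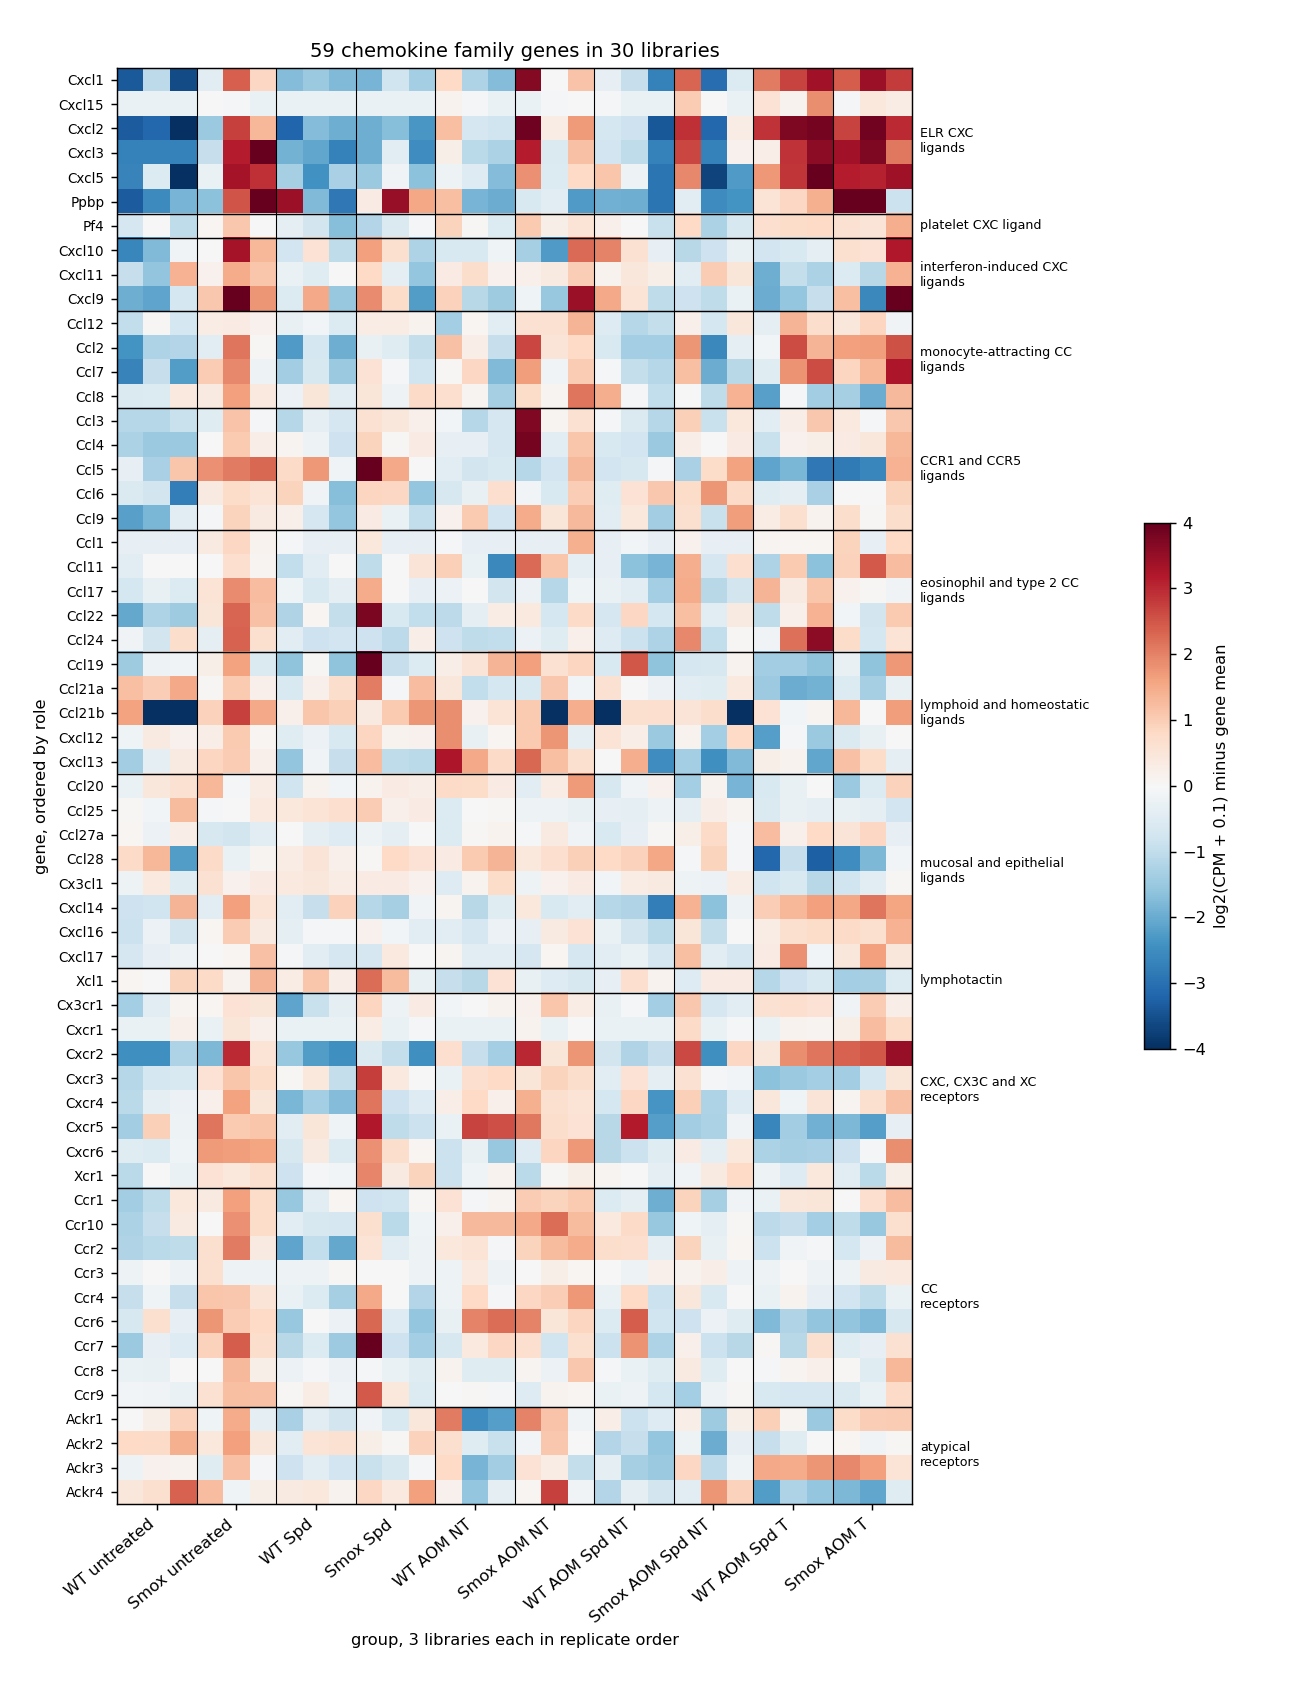
Each row is 1 gene of the family, grouped by role, and each column 1 of 30 libraries. Colour gives log2(CPM + 0.1) minus the mean of the gene over all libraries, with the scale ending at -4 and 4. The ELR ligands and Cxcr2 are darkest red in tumors and in single Smox libraries, and Ccl19 and Ccr7 in Smox Spd replicate 1.

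Smox colon carried more RNA of many chemokine genes than WT colon, averaged over the untreated, spermidine, AOM-DSS and AOM-DSS with spermidine states outside tumors (12 against 12 libraries). Of the 56 members tested, 14 were higher in Smox and 0 lower, or 25% against 5.78% of all genes called (3.75% higher and 2.03% lower). The median log2 difference of the members was 1.04, against 0.0305 over all genes, and 51 of 56 were positive. Among the 14 were the neutrophil attractants Cxcl1, Cxcl2 and Cxcl3 and their receptor Cxcr2, the monocyte attractants Ccl2 and Ccl12 with their receptor Ccr2, and Ccl3 and Ccl4. Ccl22, Cxcl16 with its receptor Cxcr6, and Cx3cr1, the receptor of CX3CL1, also rose. Averaged over only the 3 states with spermidine, AOM-DSS or both, a choice made after seeing the data, 5 members were called, namely Ccl3, Ccl4, Ccl12, Cxcr6 and Ackr4, or 8.93% against 5.12% of all genes. The median was then 0.78 and 50 of 56 were positive. Without Smox untreated replicate 2 the full average called 6.

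Within the single states, edgeR called members only in untreated mice. Among untreated mice 8 of 56 members were higher in Smox and 0 lower, 14.3% against 5.95% of all genes (2.63% higher and 3.32% lower): Cxcl2, Cxcl3, Ppbp, Ccl4, Ccl22, Cxcl16, Cxcr6 and Ccr2. Leaving out WT untreated replicate 3, Smox untreated replicate 2 or Smox untreated replicate 3 took this count to 0, while DESeq2 called 20. With spermidine alone no member was called (0.0818% of all genes, 12 members at unadjusted p under 0.05, 2 by DESeq2), although 53 of 56 were positive. No member was called in AOM-DSS non-tumor tissue (0.0665% of all genes, 8 at unadjusted p under 0.05, 2 by DESeq2) or in AOM-DSS non-tumor tissue with spermidine (0.251%, 7 and 0), by edgeR. Whether the genotype difference itself changed with AOM-DSS was tested: 0 members passed (0% of all genes called, 14 at unadjusted p under 0.05, 1 by DESeq2), with 43 of 56 estimates negative. With spermidine as the modifier, 0 members passed too (0% of all genes, 5 at unadjusted p under 0.05, 0 by DESeq2).

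AOM-DSS non-tumor tissue differed from tissue without AOM-DSS in both directions. Averaged over genotype and spermidine, 5 members were higher and 7 lower, 21.4% of members against 20.9% of all genes (8.69% higher and 12.2% lower), so the share was near that of all genes. The higher members were Cxcl2, Cxcl3, their receptor Cxcr2, Ccr2 and Ccl9. The lower members were Ppbp, Ccl5, Ccl21a, Ccl25 with its receptor Ccr9, Xcl1 and the scavenging receptor Ackr2. Without Smox AOM NT replicate 1 the count was 5. These comparisons and those of genotype share libraries.

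Tumor tissue, averaged over WT AOM Spd and Smox AOM mice (6 against 6 libraries), had 13 members higher and 11 lower, 42.9% of members against 47.3% of all genes (23.5% higher and 23.9% lower). All 5 tested ELR ligands were higher, as were the epithelial ligands Cxcl14, Cxcl16, Cxcl17 and Ccl27a, with Ccl7, Ccl17, Ccl24 and Ackr3. The lower members were Ccl21a, Cxcl12, Ccl28, Cx3cl1, Xcl1, Cxcr3, Cxcr5, Ccr4, Ccr6, Ccr10 and Ackr4. Without WT AOM Spd NT replicate 2 the count was 16. In Smox AOM mice 1 member was higher and 4 lower (24.6% of all genes called, 11.4% higher and 13.2% lower), namely Ppbp and, lower, Ccr4, Ccr6, Ccr10 and Ackr4. In WT AOM Spd mice 10 were higher and 6 lower (34.4% of all genes, 16.9% higher and 17.5% lower), with Cxcl1, Cxcl2, Cxcl3, Ccl2, Ccl12, Ccl24, Ccl27a, Cxcl14, Cxcl16 and Ackr3 higher and Ccl21a, Ccl28, Cx3cl1, Cxcr3, Cxcr5 and Ccr6 lower. The Smox count was 0 without Smox AOM T replicate 1 or 2. Between Smox AOM T and WT AOM Spd T, where genotype and spermidine cannot be told apart, 0 members were called by edgeR (0.0614% of all genes, 10 members at unadjusted p under 0.05, 2 by DESeq2).

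**Figure D2:**
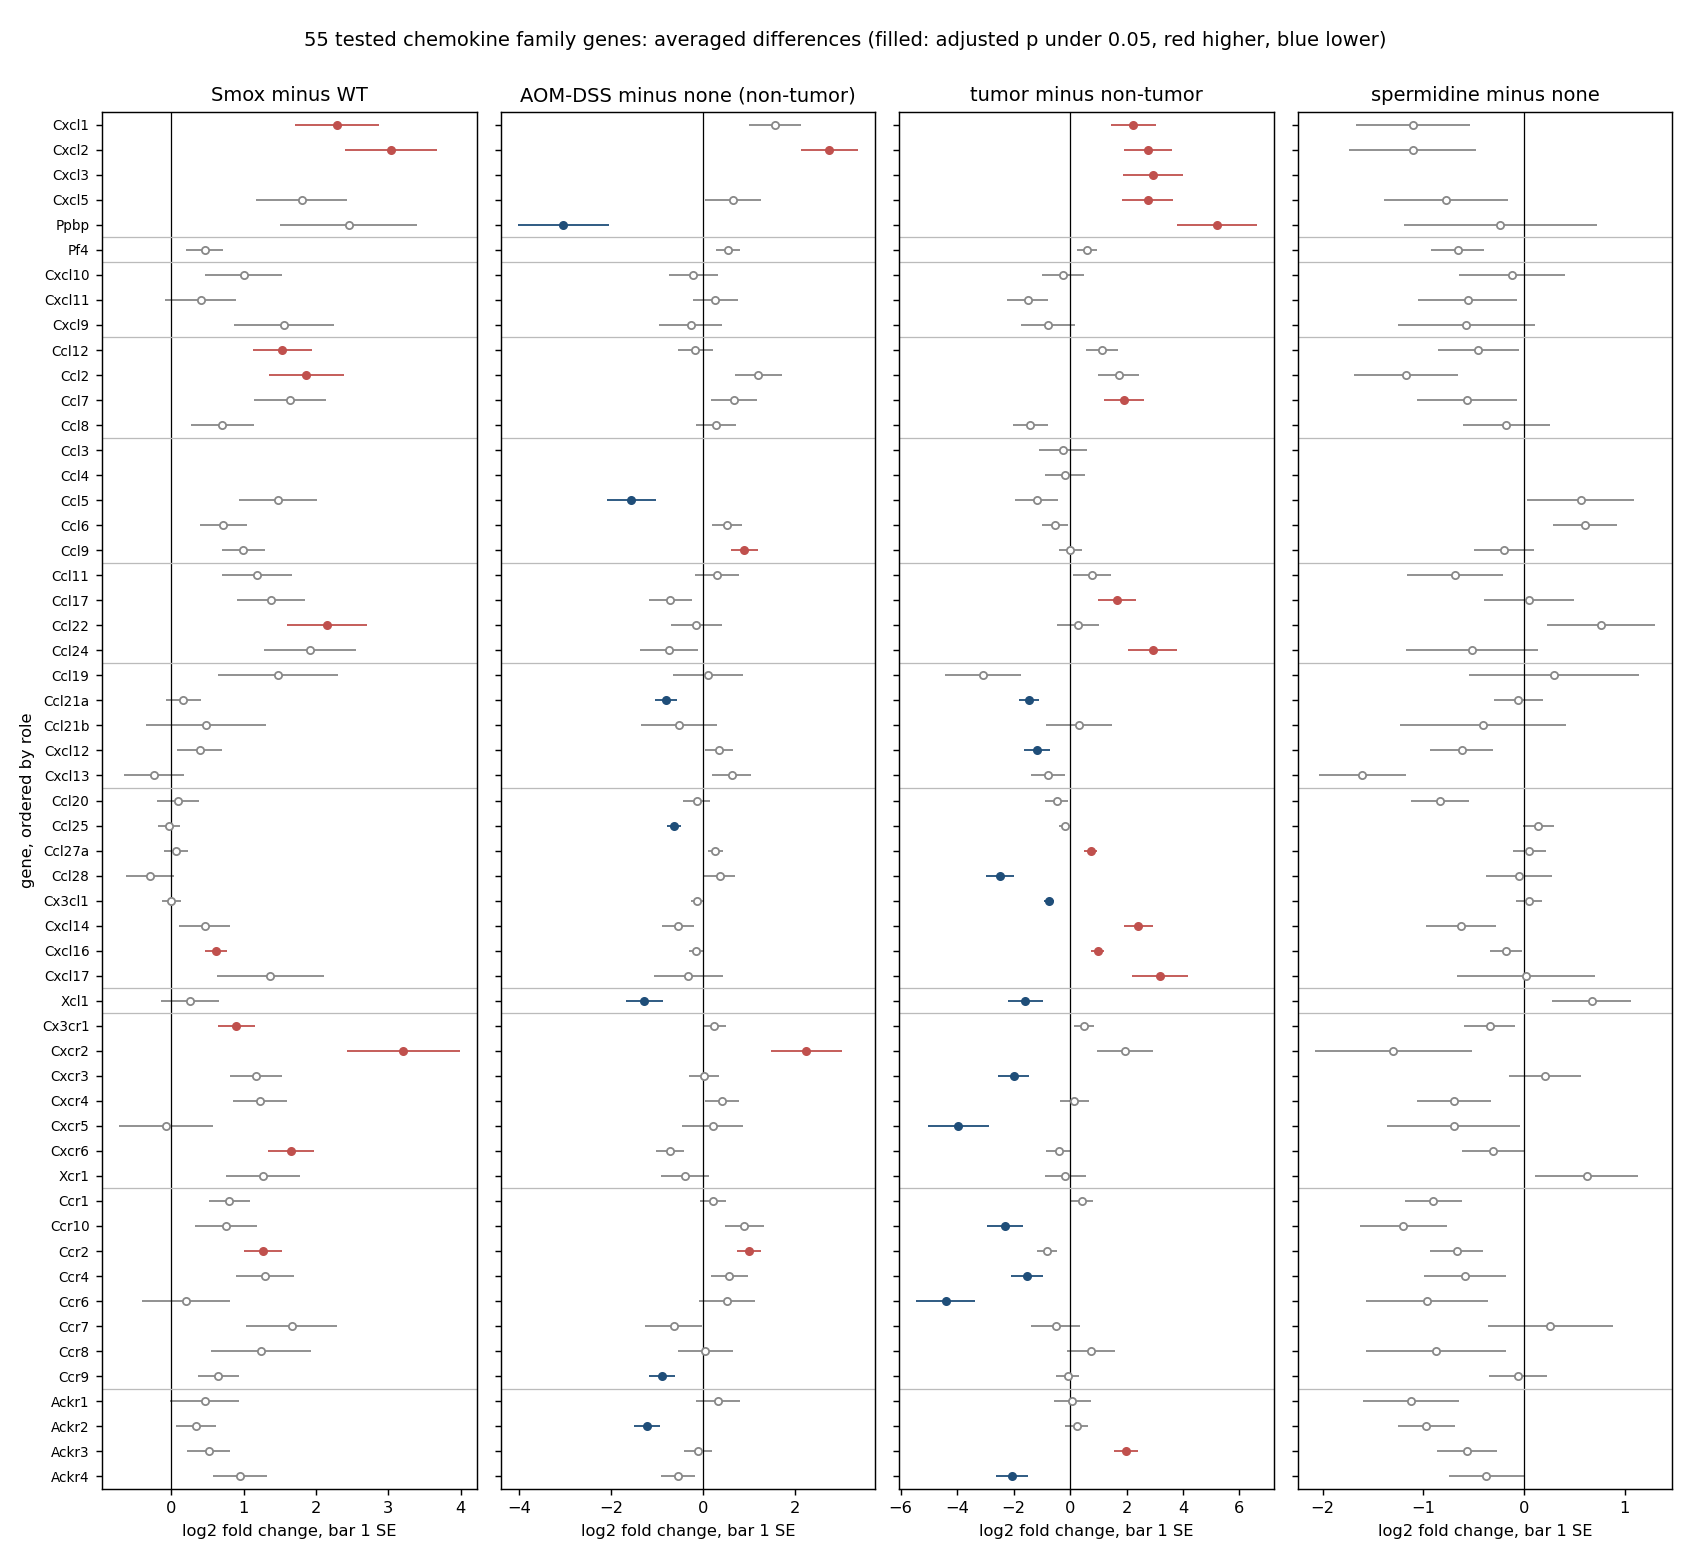
Log2 fold change (point) and 1 SE (bar) of the tested members, by role, for genotype, AOM-DSS, tumor and spermidine, each averaged over its matched groups. Filled points passed an adjusted p of 0.05, as 12 members did for AOM-DSS (Cxcl3 not drawn), 24 for tumor and 0 for spermidine. Every filled genotype point lies above 0. Cxcl3, Ccl3 and Ccl4 are drawn only for tumor because WT untreated held 1 count of them or none.

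The ELR ligands Cxcl1, Cxcl2, Cxcl3 and Cxcl5 and their receptor Cxcr2 recruit neutrophils. Cxcl2 was at 0.0732, 0.0971 and 0 CPM in the 3 WT untreated libraries and 0.515, 11.3 and 4.25 in the 3 Smox untreated libraries, which did not overlap. With spermidine alone it was 0.0911, 0.422 and 0.346 in WT and 0.35, 0.432 and 0.247 in Smox, all under 0.5. After AOM-DSS it was 3.88, 0.994 and 0.902 in WT and 25.6, 2.04 and 5.52 in Smox non-tumor tissue. Here Smox replicate 1 was far above the rest and WT replicate 1 lay above the lowest Smox library. With AOM-DSS and spermidine it was 0.964, 0.876 and 0.0635 in WT and 12.9, 0.0957 and 2 in Smox. Tumors held 12.8, 23.1 and 24.6 in WT and 11.2, 24.9 and 13.5 in Smox. Every tumor lay above every non-tumor library except Smox AOM NT replicate 1, Smox AOM Spd NT replicate 1 and Smox untreated replicate 2.

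Cxcl2 rose 8.21-fold in Smox on average (log2 SE 0.64, adjusted p = 0.00837), 6.79-fold with AOM-DSS (SE 0.63, adjusted p = 0.00397) and 6.80-fold in tumors (SE 0.84, adjusted p = 0.0102). It was called under each library left out in these averages, and without Smox AOM NT replicate 1 the tumor log2 difference went from 2.76 to 3.55. Over the 3 treated states alone the Smox difference was 1.91 on the log2 scale (adjusted p = 0.0985). In AOM-DSS non-tumor tissue of WT mice Cxcl2 was the only member called against untreated WT (31.1-fold, SE 1.44, adjusted p = 0.044, 1.79% of members against 6.44% of all genes). That call was lost when any 1 of the 6 libraries was left out. Without WT untreated replicate 3 the log2 difference was 4.50 with adjusted p = 0.218, and without WT AOM NT replicate 1 it was 3.95 with adjusted p = 0.096. Without both WT untreated replicate 3 and Smox AOM Spd NT replicate 1 the genotype difference was 2.35 and the AOM-DSS difference 2.08 on the log2 scale (adjusted p = 0.0205 and 0.0213).

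Cxcl3 had 0 counts in all 3 WT untreated libraries and 0.238, 5.64 and 11.5 CPM in the Smox untreated ones. The Smox mean was at least 371-fold higher, taking 3 counts over the WT group as the floor. Cxcl3 passed the test for genotype on average (adjusted p = 0.00648), in untreated mice (adjusted p = 0.0218) and for AOM-DSS (adjusted p = 0.0396), and its fitted folds there rest on the empty group. Over the 3 treated states the genotype log2 difference was 2.59 (adjusted p = 0.0956). The AOM-DSS call was lost under 13 of 24 single libraries left out, among them Smox AOM Spd NT replicate 1 (adjusted p = 0.0967). In tumors it was 7.69-fold higher (SE 1.06, adjusted p = 0.0272), with 0.674, 4.66 and 7.69 CPM in WT and 6.5, 8.44 and 2.67 in Smox. In the non-tumor tissue of the same groups it was 0.278, 0.219 and 0 and 5.59, 0.328 and 1.34. The groups overlapped in Smox, where NT replicate 1 was at 5.59. Without Smox AOM NT replicate 1 the tumor log2 difference was 3.73, and without Smox AOM NT replicate 3 the call was lost (adjusted p = 0.0613).

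Cxcl1 was at 0.103, 0.915 and 0.077 CPM in WT untreated and 1.47, 11 and 3.64 in Smox untreated libraries. It was 3.56, 0.802 and 0.526 in WT AOM NT and 26.6, 2 and 4.51 in Smox AOM NT. The first pair of groups did not overlap and the second did. On average Cxcl1 was 4.87-fold higher in Smox (SE 0.58, adjusted p = 0.0225), and the log2 difference fell from 2.28 to 1.66 without Smox AOM Spd NT replicate 1 (adjusted p = 0.0738). Tumors held 8.86, 13.6 and 21.4 CPM in WT and 11.1, 22.4 and 14.6 in Smox, 4.73-fold more than non-tumor tissue (SE 0.81, adjusted p = 0.0262). Without Smox AOM NT replicate 1, which at 26.6 CPM was above every tumor, the tumor log2 difference was 3.14, and without WT AOM Spd NT replicate 3 adjusted p was 0.0625.

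Cxcl5, an ELR ligand of epithelial cells, was the most abundant of the group. Cxcl5 averaged 3.14, 3.68, 6.96 and 11.9 CPM in WT untreated, Spd, AOM NT and AOM Spd NT libraries, 69.2, 5.89, 22.6 and 15.4 CPM in the Smox libraries of those states, and 117 and 105 CPM in WT AOM Spd T and Smox AOM T. Smox untreated libraries held 9.26, 113 and 85.7 CPM, all above the 1.68, 7.73 and 0.0192 of WT. The genotype average did not pass (log2 difference 1.80, SE 0.63, adjusted p = 0.0896). In tumors Cxcl5 was 6.74-fold higher (SE 0.91, adjusted p = 0.0163), and without WT AOM Spd T replicate 3, at 231 CPM, the adjusted p was 0.0517. Tumor libraries lay between 37.3 and 231 CPM and non-tumor libraries between 1.40 and 40.5.

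Ppbp, which encodes a platelet-derived CXC ligand precursor, followed another order. Ppbp averaged 0.0808, 3.64, 0.847 and 0.117 CPM in WT untreated, Spd, AOM NT and AOM Spd NT libraries, 43.9, 5.05, 0.436 and 0.271 CPM in the Smox libraries of those states, and 1.87 and 41.1 CPM in WT AOM Spd T and Smox AOM T. Single libraries set these means: Smox untreated held 0.218, 5.65 and 126 CPM, WT Spd 10.7, 0.193 and 0.0385, Smox Spd 1.15, 11.2 and 2.83 and Smox AOM T 53.6, 69.2 and 0.451. The 5 libraries with the most Ppbp (126, 69.2, 53.6, 11.2 and 10.7 CPM) were also the 5 with the highest summed level of 9 squamous epithelium genes (2790, 642, 532, 791 and 305 CPM, in the same order). No other library held over 152 CPM of that list. The part of squamous tissue in the Ppbp differences was not tested. Ppbp was 36.7-fold higher in tumors (SE 1.42, adjusted p = 0.00488) and 8.23-fold lower with AOM-DSS (SE 0.99, adjusted p = 0.0332). The AOM-DSS log2 difference of -3.04 became -1.81 without WT Spd replicate 1 (adjusted p = 0.174) and -2.06 without Smox untreated replicate 3 (adjusted p = 0.108), and -3.63 without WT AOM NT replicate 1. The squamous list fell with AOM-DSS in 7 of 9 genes and rose in tumors in 7 of 9. Of all genes, 12.2% were called lower with AOM-DSS and 23.5% higher in tumors. In untreated mice Ppbp was called higher in Smox (adjusted p = 0.0319), and without Smox untreated replicate 3 its adjusted p was 0.173. This call was lost under 5 of 6 single libraries left out.

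Cxcr2, the receptor of these ligands on neutrophils, was at 0, 0 and 0.135 CPM in WT untreated and 0.0595, 4.22 and 0.708 in Smox untreated libraries. In non-tumor tissue after AOM-DSS it was 0.768, 0.192 and 0.113 in WT and 4.32, 0.674 and 1.79 in Smox. Both pairs of groups overlapped. It was 9.25-fold higher in Smox on average (SE 0.78, adjusted p = 0.0181) and 4.79-fold higher with AOM-DSS (SE 0.76, adjusted p = 0.0391). Without Smox untreated replicate 2 the genotype log2 difference was 2.66 (adjusted p = 0.0522), and without WT untreated replicate 3 it was 4.29. The AOM-DSS call was lost without Smox AOM Spd NT replicate 1 (log2 difference 1.85, adjusted p = 0.0926), and without WT untreated replicate 3 that difference was 3.34. In all, the AOM-DSS call was lost under 13 of 24 single libraries left out. The Cxcr2 tumor difference did not pass (1.95, SE 0.98, adjusted p = 0.106).

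Of 10 neutrophil genes tested, 6 were higher in Smox on average, 7 higher with AOM-DSS and 4 higher in tumors, and 0 were lower in any of these. Of all genes, 3.75%, 8.69% and 23.5% were called higher in these averages, in the same order. Csf3r, the receptor of the neutrophil growth factor G-CSF, had a median of 0.25 CPM in WT untreated and 2.65 in Smox untreated libraries. S100a8, a calcium-binding protein of neutrophils, had medians of 0.0832 and 23.5. Summed over the list, WT untreated ran from 5.96 to 129 CPM, Smox untreated from 110 to 184, WT AOM Spd T from 208 to 295 and Smox AOM T from 234 to 241. Ly6g made up much of this sum, with a median of 78.1 CPM over all libraries, while Elane was at 0 in 28 of the 30 and Mpo in 17. Of 12 chemokine-inducing cytokines tested, 5 were higher in Smox, 2 with AOM-DSS and 7 in tumors, beside the same shares of all genes. The inflammatory cytokine Il1b had a median of 1.5 CPM in WT untreated, 7.0 in Smox untreated, 16.0 in WT AOM Spd T and 15.7 in Smox AOM T. The part of these cells and cytokines in the ligand differences was not tested.

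**Figure D3:**
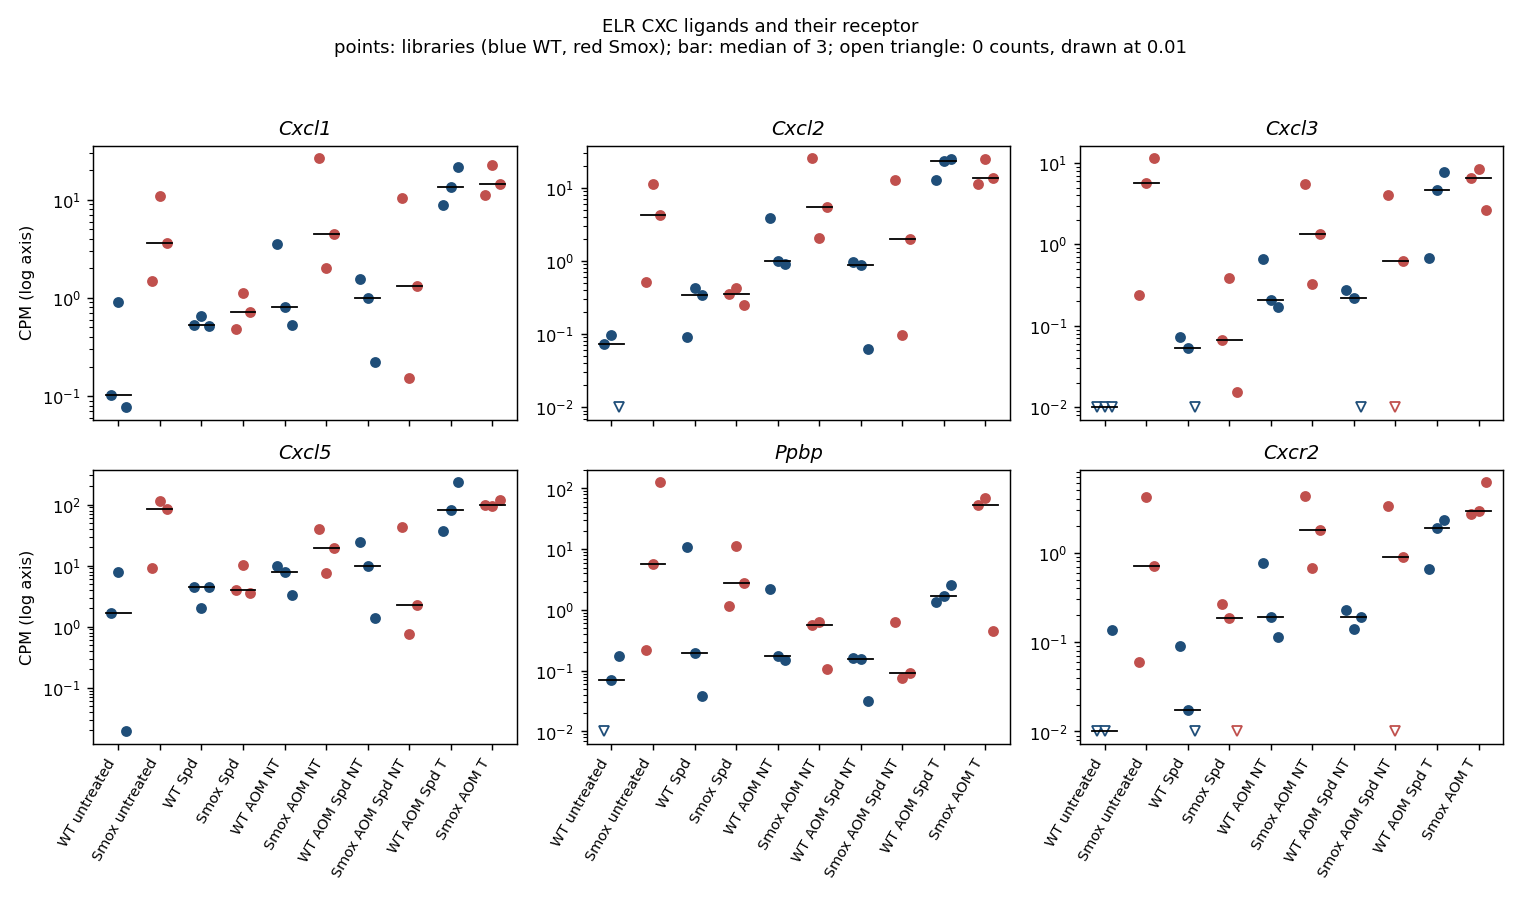
CPM of the 4 Cxcl ligands, Ppbp and Cxcr2 on a log axis, with 1 point per library, WT in blue and Smox in red, a bar at the median of each group, and open triangles at 0.01 for libraries with 0 counts. Cxcl1, Cxcl2 and Cxcl5 are at 8.86 CPM or more in all 6 tumors. Ppbp is high in single libraries of several groups, up to 126 CPM.

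Pf4, the other platelet CXC ligand of the cluster, varied little. Pf4 averaged 1.61, 1.25, 2.81 and 2.08 CPM in WT untreated, Spd, AOM NT and AOM Spd NT libraries, 3.33, 1.57, 3.71 and 2.17 CPM in the Smox libraries of those states, and 3.94 and 4.51 CPM in WT AOM Spd T and Smox AOM T. No comparison called it.

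The interferon-induced ligands Cxcl9 and Cxcl10, which bind CXCR3, and Cxcl11 were called in none of the 21 comparisons by edgeR. Cxcl11, which GENCODE lists as a polymorphic pseudogene, averaged 0.364 CPM. Cxcl9 averaged 0.501, 2, 1.37 and 2.52 CPM in WT untreated, Spd, AOM NT and AOM Spd NT libraries, 15.1, 2.91, 6.5 and 0.929 CPM in the Smox libraries of those states, and 0.507 and 11.1 CPM in WT AOM Spd T and Smox AOM T. Cxcl10 averaged 0.795, 1.58, 1.34 and 4 CPM in WT untreated, Spd, AOM NT and AOM Spd NT libraries, 8.81, 3.21, 3.42 and 1.1 CPM in the Smox libraries of those states, and 1.22 and 7.88 CPM in WT AOM Spd T and Smox AOM T. High values came from single libraries: Smox untreated replicate 2 held 36.5 CPM of Cxcl9 and 19.7 of Cxcl10, Smox AOM NT replicate 3 held 17.7 and 9.27, and Smox AOM T replicate 3 held 29.4 and 17.9. Their groups otherwise held at most 5.43 CPM of Cxcl9 and 4.85 of Cxcl10. Genotype log2 differences were 1.56 (SE 0.69, adjusted p = 0.189) for Cxcl9 and 1.0 (SE 0.53, adjusted p = 0.283) for Cxcl10. Cxcr3 was 4.00-fold lower in tumors (SE 0.54, adjusted p = 0.00455), at 0.0329 to 0.484 CPM in 6 tumors and 0.212 to 0.674 in 6 non-tumor libraries. Only Smox AOM T replicate 3, the tumor rich in Cxcl9, reached the non-tumor range. Of 10 interferon response genes, 5 were lower with AOM-DSS (12.2% of all genes) and 0 were called by genotype (5.78% of all genes).

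Among the monocyte attractants, Ccl2 and Ccl12, whose products bind CCR2, rose in Smox. Ccl2 was 0.0586, 0.25 and 0.269 CPM in WT untreated and 0.515, 3.54 and 0.759 in Smox untreated libraries, without overlap. It was 3.65-fold higher in Smox on average (SE 0.52, adjusted p = 0.0352), and without Smox AOM Spd NT replicate 1 the log2 difference was 1.37 (adjusted p = 0.112). This call was lost under 13 of 24 single libraries left out. In WT AOM Spd tumors Ccl2 rose 8.46-fold (SE 1.08, adjusted p = 0.0308), which fell to 2.14 on the log2 scale without tumor replicate 2 (adjusted p = 0.141). Ccl12 was 2.90-fold higher in Smox (SE 0.41, adjusted p = 0.0276) at low levels, with medians of 0.217 CPM in 12 Smox and 0.0793 in 12 WT libraries, and 7.10-fold higher in WT AOM Spd tumors (SE 0.87, adjusted p = 0.0156). The latter call was lost without tumor replicate 2 (log2 difference 2.20, adjusted p = 0.0735), and without WT AOM Spd NT replicate 1 the log2 difference was 3.80. The Smox call of Ccl12 was lost under 8 of 24 single libraries left out, with a highest adjusted p of 0.0559. Ccl7 was called only in tumors on average (3.76-fold, SE 0.70, adjusted p = 0.0287; 1.37 on the log2 scale and adjusted p = 0.105 without Smox AOM T replicate 3). Ccl7 averaged 0.176, 0.326, 0.859 and 0.492 CPM in WT untreated, Spd, AOM NT and AOM Spd NT libraries, 1.97, 0.829, 1.78 and 0.824 CPM in the Smox libraries of those states, and 3.07 and 4.09 CPM in WT AOM Spd T and Smox AOM T. Ccl8 averaged 1.29, 1.46, 1.5 and 2.08 CPM in WT untreated, Spd, AOM NT and AOM Spd NT libraries, 2.85, 1.95, 3.63 and 2.05 CPM in the Smox libraries of those states, and 0.704 and 1.51 CPM in WT AOM Spd T and Smox AOM T. No comparison called Ccl8.

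Ccr2, the receptor that brings monocytes out of the blood, rose in Smox colon and with AOM-DSS. Ccr2 averaged 0.945, 0.633, 2.71 and 2.87 CPM in WT untreated, Spd, AOM NT and AOM Spd NT libraries, 5.16, 2.18, 5.2 and 2.68 CPM in the Smox libraries of those states, and 1.72 and 2.81 CPM in WT AOM Spd T and Smox AOM T. Untreated libraries held 0.879, 0.957 and 1 CPM in WT and 3.37, 9.3 and 2.81 in Smox, and those with spermidine alone 0.419, 1.04 and 0.443 and 3.15, 1.53 and 1.87. In neither state did the genotypes overlap. Ccr2 was 2.41-fold higher in Smox on average (SE 0.26, adjusted p = 0.00795) and 2.01-fold higher with AOM-DSS (SE 0.26, adjusted p = 0.00984), and both were called under each library left out. Over the 3 treated states the Smox difference was 0.87 on the log2 scale (adjusted p = 0.0874). In untreated mice it was 5.45-fold (SE 0.55, adjusted p = 0.0215), and without Smox untreated replicate 2, at 9.30 CPM, the log2 difference was 1.69 (adjusted p = 0.143). In spermidine-fed WT mice Ccr2 was the only member called for AOM-DSS (4.54-fold, SE 0.55, adjusted p = 0.0391, 1.79% of members against 1.91% of all genes). No member was called there once any of the 6 libraries was left out. AOM-DSS called no member in Smox mice without spermidine (0.0767% of all genes, 7 at unadjusted p under 0.05, 1 by DESeq2) or with it (0.0205%, 13 and 3).

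The genotype by AOM-DSS estimate for Ccr2 was -1.70 (SE 0.52, unadjusted p = 0.00364, edgeR adjusted p = 0.236), so the smaller Smox difference after AOM-DSS did not pass. Of 12 monocyte and macrophage genes, 5 were higher in Smox on average and 1 with AOM-DSS (3.75% and 8.69% of all genes called higher). The list summed to 66.3 to 125 CPM in WT untreated and 191 to 338 in Smox untreated libraries, which did not overlap. Its part in the Ccr2 and Ccl2 differences was not tested.

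Ccl3 and Ccl4, ligands of myeloid cells and T cells, were low and called higher in Smox. Over 12 libraries a genotype outside tumors, Ccl3 ran from 0.0191 to 2.79 CPM in Smox and 0 to 0.114 in WT, and Ccl4 from 0.104 to 3.86 and 0 to 0.2, so the ranges overlapped. WT untreated libraries held 1 count of each gene in all. Ccl4 was 0.178, 0.477 and 0.232 CPM in Smox untreated, 0.122, 0.122 and 0.0752 in WT AOM NT and 3.86, 0.104 and 0.496 in Smox AOM NT libraries. Smox AOM NT replicate 1 stood far above the rest, and the ranges of the AOM NT groups overlapped. The genotype average passed for Ccl3 (adjusted p = 0.00677) and Ccl4 (adjusted p = 0.00215), also with each library left out. Their fitted average rests in part on WT untreated, and over the 3 treated states the log2 differences were 2.80 for Ccl3 (adjusted p = 0.029) and 2.29 for Ccl4 (adjusted p = 0.0208). Without Smox AOM NT replicate 1 the full averages were 2.61 and 2.46. In untreated mice the Ccl4 call (adjusted p = 0.0229) was lost without Smox untreated replicate 2 (adjusted p = 0.129).

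Ccl6 and Ccl9, myeloid ligands found in rodents, were the most abundant of these ligands. Ccl6 averaged 48.5, 106, 105 and 150 CPM in WT untreated, Spd, AOM NT and AOM Spd NT libraries, 151, 136, 123 and 235 CPM in the Smox libraries of those states, and 65.8 and 133 CPM in WT AOM Spd T and Smox AOM T. Ccl9 averaged 4.45, 7.74, 13.9 and 9.04 CPM in WT untreated, Spd, AOM NT and AOM Spd NT libraries, 15, 9.53, 24.7 and 19.5 CPM in the Smox libraries of those states, and 14.3 and 15.9 CPM in WT AOM Spd T and Smox AOM T. Ccl9 was 1.87-fold higher with AOM-DSS (SE 0.30, adjusted p = 0.0352), with medians of 15.1 CPM in 12 libraries with and 8.61 in 12 without. The call was lost under 12 of 24 single libraries left out, the highest adjusted p being 0.074 without Smox AOM Spd NT replicate 3. Ccl6 was not called in any comparison. WT untreated replicate 3, at 15 CPM, was its lowest library and Smox AOM Spd NT replicate 2, at 354, its highest.

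Ccl5, a ligand made by T cells and NK cells, was 2.94-fold lower with AOM-DSS (SE 0.54, adjusted p = 0.0434). Libraries without AOM-DSS had a median of 4.00 CPM and ran from 0.569 to 26.6, and those with it had a median of 0.958 and ran from 0.566 to 4.85. The highest, Smox Spd replicate 1, was also highest for the T and NK cell list, and without it the log2 difference was -1.09 (adjusted p = 0.139). The Ccl5 call was lost under 17 of 24 single libraries left out, and without both atypical libraries (adjusted p = 0.158). Of 14 T and NK cell genes, 3 were lower and 0 higher with AOM-DSS, a share near the 20.9% of all genes called (12.2% lower). Xcl1, lymphotactin, a ligand of XCR1 made by the same cells, was 2.42-fold lower (SE 0.40, adjusted p = 0.0268) and 3.02-fold lower in tumors (SE 0.62, adjusted p = 0.0386). Xcl1 averaged 0.281, 0.344, 0.142 and 0.238 CPM in WT untreated, Spd, AOM NT and AOM Spd NT libraries, 0.42, 0.675, 0.109 and 0.214 CPM in the Smox libraries of those states, and 0.0635 and 0.0434 CPM in WT AOM Spd T and Smox AOM T. The calls were lost without Smox Spd replicate 1 (adjusted p = 0.0702) and without WT AOM Spd NT replicate 2 (adjusted p = 0.11). In all they were lost under 7 of 24 and 9 of 12 single libraries left out. The Xcl1 tumor log2 difference, -1.59, was -2.26 without Smox AOM T replicate 3.

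Ccr1, a receptor of these ligands on myeloid cells, was not called by genotype (log2 difference 0.80, SE 0.28, adjusted p = 0.0956). Ccr1 averaged 2.27, 2.17, 3.73 and 1.74 CPM in WT untreated, Spd, AOM NT and AOM Spd NT libraries, 6.44, 2.23, 6.26 and 3.29 CPM in the Smox libraries of those states, and 3.78 and 5.19 CPM in WT AOM Spd T and Smox AOM T.

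Cxcr6 and its transmembrane ligand Cxcl16 were both higher in Smox. Cxcr6, found on resident T cells and NK cells, was 0.63, 0.61 and 0.808 CPM in WT untreated and 3.23, 3.17 and 2.97 in Smox untreated libraries, without overlap and with little spread. It was 0.565, 1.23 and 0.597 and 3.55, 1.59 and 0.974 with spermidine, 0.471, 0.733 and 0.263 and 0.612, 1.76 and 3.34 after AOM-DSS, and 0.376, 0.469 and 0.635 and 1.18, 0.708 and 1.28 with both. Only in the untreated state and with both agents did the genotypes not overlap. On average the rise was 3.14-fold (SE 0.32, adjusted p = 0.00464), called under each library left out, and over the 3 treated states it was 1.47 on the log2 scale (adjusted p = 0.0247). In untreated mice it was 4.57-fold (SE 0.64, adjusted p = 0.0447), and 2.17 on the log2 scale with adjusted p = 0.149 without Smox untreated replicate 2. The untreated call was lost under each of the 6 libraries left out, and with only the groups compared (adjusted p = 0.122). Of the 14 genes marking T cells and NK cells, 6 were higher in Smox on average (3.75% of all genes), and the part of such cells was not tested.

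Cxcl16 was 11.8, 18.3 and 12.9 CPM in WT untreated and 22.9, 43.9 and 27.9 in Smox untreated libraries, 2.19-fold higher in the latter (SE 0.32, adjusted p = 0.04) and 1.53-fold on average (SE 0.16, adjusted p = 0.023). Without Smox untreated replicate 2 these adjusted p values were 0.247 and 0.0755. The untreated call was lost under 4 of 6 single libraries left out and that of the average under 7 of 24. In tumors it was 1.96-fold higher (SE 0.22, adjusted p = 0.00134), at 26.6 to 56.9 CPM in 6 tumors against 10.3 to 32.1 in 6 non-tumor libraries, called under every library left out.

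Cx3cr1, the receptor of macrophages for CX3CL1, was 1.87-fold higher in Smox (SE 0.25, adjusted p = 0.037). Cx3cr1 averaged 2.28, 1.58, 3.15 and 2.26 CPM in WT untreated, Spd, AOM NT and AOM Spd NT libraries, 4.17, 4.19, 4.79 and 3.71 CPM in the Smox libraries of those states, and 4.91 and 4.37 CPM in WT AOM Spd T and Smox AOM T. The call was lost under most single libraries left out, with adjusted p = 0.0993 without Smox AOM Spd NT replicate 1. Cxcr4, the receptor of CXCL12, was not called by genotype (log2 difference 1.23, SE 0.37, adjusted p = 0.0516). Cxcr4 averaged 1.62, 0.693, 3.23 and 2.01 CPM in WT untreated, Spd, AOM NT and AOM Spd NT libraries, 4.45, 4.55, 4.57 and 2.39 CPM in the Smox libraries of those states, and 2.91 and 3.88 CPM in WT AOM Spd T and Smox AOM T.

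Ccl22, a ligand of CCR4 made by dendritic cells and macrophages, was 0.0293, 0.125 and 0.0962 CPM in WT untreated and 0.634, 2.55 and 1.09 in Smox untreated libraries, without overlap. It was 4.46-fold higher in Smox on average (SE 0.55, adjusted p = 0.023). Smox Spd replicate 1, at 7.16 CPM, decided that value, since without it the log2 difference of 2.16 became 1.23 (adjusted p = 0.109). In untreated mice it was 16.8-fold higher (SE 1.21, adjusted p = 0.0475), and 3.32 on the log2 scale without replicate 2 (adjusted p = 0.2). The untreated call was lost under 5 of 6 single libraries left out. Ccl22 averaged 0.0834, 0.253, 0.339 and 0.432 CPM in WT untreated, Spd, AOM NT and AOM Spd NT libraries, 1.43, 2.52, 0.539 and 0.656 CPM in the Smox libraries of those states, and 0.654 and 0.538 CPM in WT AOM Spd T and Smox AOM T. Ccl11, an eosinophil attractant, was not called. Ccl11 averaged 0.541, 0.424, 0.588 and 0.226 CPM in WT untreated, Spd, AOM NT and AOM Spd NT libraries, 0.764, 0.593, 1.72 and 1.06 CPM in the Smox libraries of those states, and 0.554 and 2.15 CPM in WT AOM Spd T and Smox AOM T.

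Ccl24, another eosinophil attractant, rose 7.62-fold in tumors on average (SE 0.87, adjusted p = 0.00873) and 33.7-fold in WT AOM Spd tumors (SE 1.33, adjusted p = 0.00632). The tumors held 0.115, 0.998 and 2.73 CPM in WT and 0.293, 0.0462 and 0.25 in Smox, against 0.0653, 0.0313 and 0 and 0.102, 0.0691 and 0.172 in their non-tumor tissue. The WT groups did not overlap, with 6 counts in all in WT AOM Spd NT, and the Smox groups did. In Smox AOM mice Ccl24 was not called (log2 difference 0.78, SE 1.15, adjusted p = 0.646). Of 8 eosinophil and mast cell genes tested, 1 was higher and 2 lower in tumors on average (47.3% of all genes called). The higher was Ms4a2, and the lower were Kit and Siglecf, an eosinophil surface receptor (Siglecf log2 difference -1.52, SE 0.48, adjusted p = 0.0121). In WT AOM Spd mice alone Cpa3, Fcer1a, Mcpt1, Mcpt2 and Ms4a2 were called higher in tumors and Kit lower (34.4% of all genes called). Their part in the Ccl24 difference was not tested. Without WT AOM Spd T replicate 3 these log2 differences of 2.93 and 5.07 were 2.33 and 3.88 and still passed, and without WT AOM Spd NT replicate 1 the latter was 5.92. Ccl17, the other CCR4 ligand, was 3.17-fold higher in tumors (SE 0.67, adjusted p = 0.044), at 0.134 to 0.559 CPM in 6 tumors and 0 to 0.129 in 6 non-tumor libraries, without overlap. Its call was lost under 8 of 12 single libraries left out, with adjusted p = 0.101 without Smox AOM NT replicate 2.

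**Figure D4:**
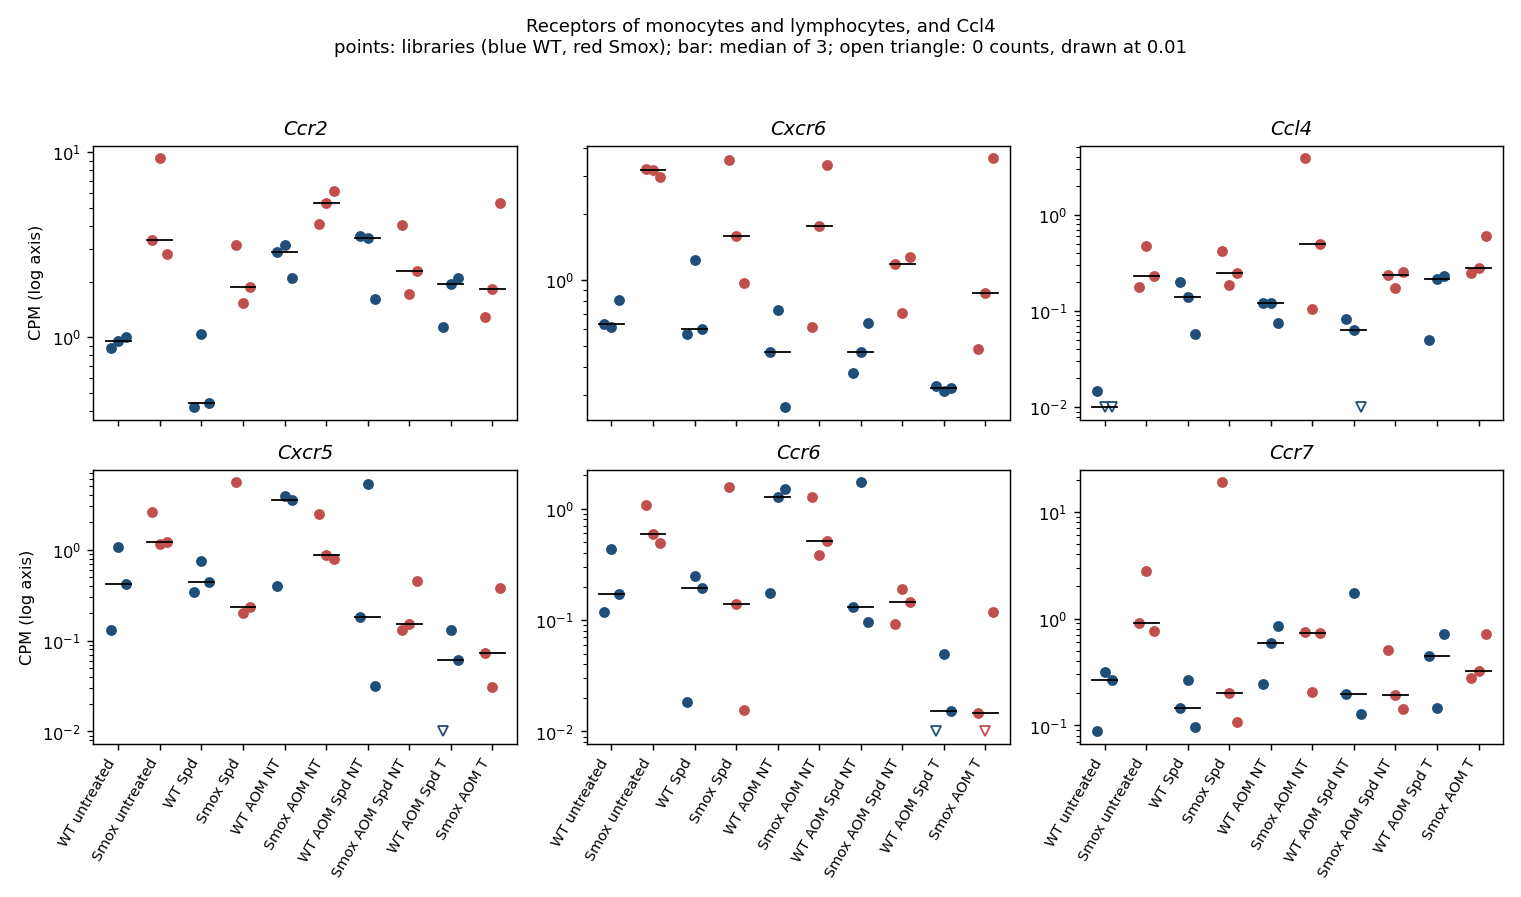
CPM of Ccr2, Cxcr6, Ccl4, Cxcr5, Ccr6 and Ccr7 on a log axis, with 1 point per library, WT in blue and Smox in red, a bar at the median of each group, and open triangles at 0.01 for 0 counts. Ccr2 and Cxcr6 separate the untreated genotypes, while Cxcr5 and Ccr7 reach 5.52 and 18.8 CPM in Smox Spd replicate 1.

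Epithelial ligands carried the clearest tumor differences. Ccl28, the ligand of CCR10 that draws IgA plasma cells to the mucosa, was 188, 204 and 315 CPM in WT AOM Spd NT and 12, 56.5 and 11 in WT AOM Spd T libraries. It was 144, 171 and 208 in Smox AOM NT and 19, 31 and 99.5 in Smox AOM T. All 6 tumors lay below all 6 non-tumor libraries, and Smox AOM T replicate 3 was the nearest. Ccl28 fell 5.58-fold in tumors (SE 0.49, adjusted p = 0.000391), and without WT AOM Spd T replicate 2 the log2 difference went from -2.48 to -3.08. Ccl28 averaged 159, 136, 211 and 236 CPM in WT untreated, Spd, AOM NT and AOM Spd NT libraries, 130, 152, 175 and 136 CPM in the Smox libraries of those states, and 26.5 and 49.8 CPM in WT AOM Spd T and Smox AOM T. WT untreated replicate 3, at 23.0 CPM, was the only non-tumor library under 90. Ccr10, its receptor, fell 4.96-fold in tumors (SE 0.64, adjusted p = 0.00503), at 0.0308 to 0.484 CPM against 0.0317 to 1.66, and the log2 difference of -2.31 was -3.15 without Smox AOM T replicate 3. In Smox AOM mice alone Ccr10 fell 5.68-fold (SE 0.88, adjusted p = 0.0411), and the log2 difference of -2.51 was -2.0 without tumor replicate 2 (adjusted p = 0.153) and -4.18 without tumor replicate 3 (adjusted p = 0.00541). That call was lost under 5 of the 6 libraries left out.

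Cx3cl1, the membrane-bound ligand of CX3CR1, was lower in tumors by 1.68-fold (SE 0.19, adjusted p = 0.00256). Cx3cl1 averaged 87.5, 118, 104 and 104 CPM in WT untreated, Spd, AOM NT and AOM Spd NT libraries, 118, 110, 97.8 and 88.7 CPM in the Smox libraries of those states, and 51.1 and 70.7 CPM in WT AOM Spd T and Smox AOM T. It varied least of the abundant members, from 42.0 to 150 CPM over the 30 libraries. Colon epithelial genes moved with these ligands: 7 of 10 were lower in tumors and 1 higher (23.9% and 23.5% of all genes). They summed to 16800 to 19000 CPM in WT AOM Spd NT and 10600 to 12600 in WT AOM Spd T. In Smox mice they summed to 13900 to 20200 in Smox AOM NT and 10800 to 14600 in Smox AOM T. Their part in the Ccl28 and Cx3cl1 differences was not tested.

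Cxcl14, a ligand of epithelial and stromal cells, rose in tumors. It was 4.95, 4.75 and 1.52 CPM in WT AOM Spd NT and 21.8, 27.5 and 34.7 in the tumors, and 14.8, 7.14 and 8.02 in Smox AOM NT and 32, 49.2 and 33.3 in the tumors, without overlap. The difference was 5.33-fold (SE 0.51, adjusted p = 0.000721). Outside tumors Cxcl14 reached 28.3 in WT untreated replicate 3, 34.5 in Smox untreated replicate 2 and 28.8 in Smox AOM Spd NT replicate 1. Cxcl17 was also called higher (adjusted p = 0.0119) on few counts, 0.046 to 0.458 CPM in 6 tumors and 0 to 0.0691 in 6 non-tumor libraries, and not without WT AOM Spd T replicate 2 (adjusted p = 0.0566). Ccl27a, a ligand of CCR10, was 1.67-fold higher (SE 0.23, adjusted p = 0.0119) and stayed called under every library left out.

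**Figure D5:**
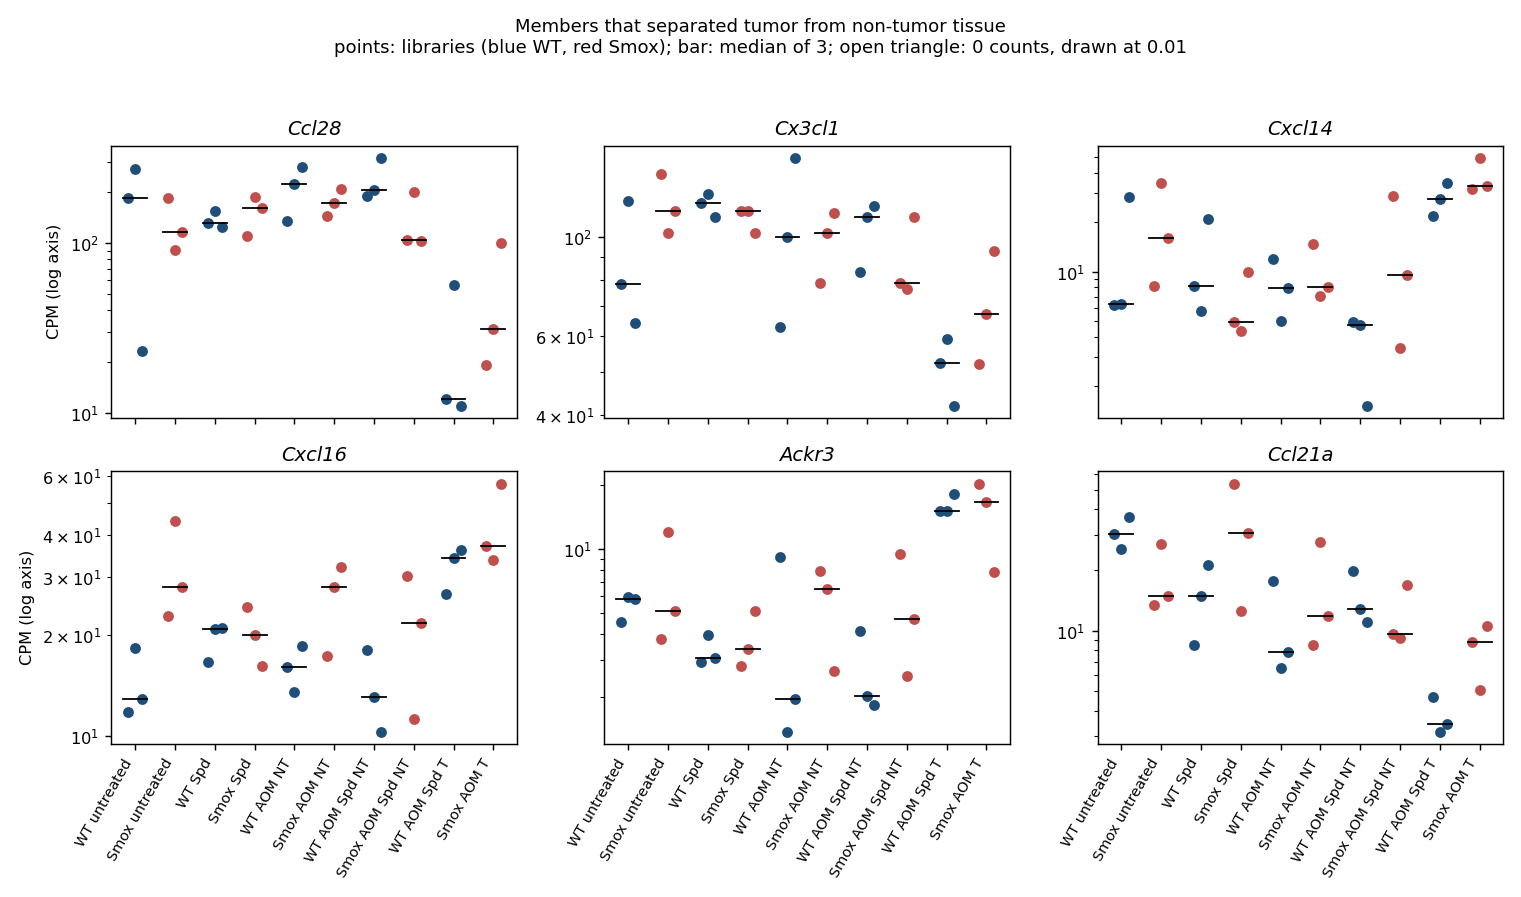
CPM of Ccl28, Cx3cl1, Cxcl14, Cxcl16, Ackr3 and Ccl21a on a log axis, with 1 point per library, WT in blue and Smox in red, and a bar at the median of each group. The 2 tumor groups at the right lie low for Ccl28 (11 to 99.5 CPM) and Ccl21a (3.16 to 10.5) and high for Cxcl14 (21.8 to 49.2) and Ackr3 (7.80 to 20.3).

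Ccl25 and its receptor Ccr9, which bring T cells to the gut, were both lower with AOM-DSS. Ccl25 fell 1.54-fold (SE 0.15, adjusted p = 0.00636), with 2.85 to 5.15 CPM in 12 libraries with AOM-DSS and 3.93 to 10.3 in 12 without, and the call held under each library left out. Ccr9 fell 1.85-fold (SE 0.29, adjusted p = 0.0336), and without Smox Spd replicate 1, at 3.34 CPM, the log2 difference was -0.52 (adjusted p = 0.113). Ccl20, the ligand of CCR6 made by epithelium over lymphoid follicles, was not called in any comparison and averaged 4.99 CPM.

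Of 5 ligands of lymphoid tissue and stroma, 2 were lower in tumors, Ccl21a and Cxcl12, and 0 higher. Of all genes, 23.9% were called lower there and 23.5% higher. Ccl21a, the lymphatic ligand of CCR7, fell 2.76-fold (SE 0.36, adjusted p = 0.00211) to 3.16 to 10.5 CPM in tumors from 8.46 to 27.6, and 1.74-fold with AOM-DSS (SE 0.25, adjusted p = 0.0258). The AOM-DSS call was lost without Smox Spd replicate 1, at 53.6 CPM (adjusted p = 0.0674). Ccl21a averaged 30.9, 14.8, 10.7 and 14.6 CPM in WT untreated, Spd, AOM NT and AOM Spd NT libraries, 18.4, 32.2, 16 and 11.9 CPM in the Smox libraries of those states, and 3.77 and 8.11 CPM in WT AOM Spd T and Smox AOM T. Of 5 lymphatic endothelium genes, Lyve1 (log2 difference -0.92, adjusted p = 0.035) and Reln (-1.52, adjusted p = 0.0299) were lower in tumors and Prox1, a transcription factor, was 123-fold higher (log2 SE 1.11, adjusted p = 6.28e-05). These calls stand beside the same shares of all genes. The lymphatic list summed to 16.3 to 20.2 CPM in WT AOM Spd NT, 352 to 599 in WT AOM Spd T, 13.9 to 63.6 in Smox AOM NT and 32.9 to 509 in Smox AOM T. The higher sums in tumors have the direction of Prox1 and not of Lyve1 or Reln, so they do not measure lymphatic endothelium. The part of these genes in the Ccl21a difference was not tested. Ccl21b, a near-identical copy, was at 0 in 5 libraries that held Ccl21a, so the split of reads between these copies is uncertain. Among them were Smox AOM NT replicate 2 and WT AOM Spd NT replicate 1, at 27.6 and 19.8 CPM of Ccl21a. The summed CPM of both copies was not tested. It was 8.38, 5.43 and 6.12 in WT AOM Spd T, below every WT AOM Spd NT library. In Smox the sums overlapped, with 15.1, 7.53 and 18.6 in Smox AOM T and 13.7, 27.6 and 18.8 in Smox AOM NT. Cxcl12, the stromal ligand of CXCR4, fell 2.26-fold in tumors (SE 0.45, adjusted p = 0.0349), with adjusted p = 0.114 without Smox AOM NT replicate 2. That call was lost under 8 of 12 single libraries left out. Cxcl12 averaged 10, 6.71, 16.7 and 9.19 CPM in WT untreated, Spd, AOM NT and AOM Spd NT libraries, 13.1, 12.3, 19.1 and 9.84 CPM in the Smox libraries of those states, and 4.58 and 7.56 CPM in WT AOM Spd T and Smox AOM T. All 7 smooth muscle genes were lower in tumors (23.9% of all genes called lower). They summed to 45.2 to 1020 CPM in tumors and 882 to 4150 in the non-tumor groups. The list of stroma genes went the other way in WT, at 152 to 548 CPM in WT AOM Spd NT and 1090 to 1200 in WT AOM Spd T. In Smox its sums overlapped, at 380 to 1080 CPM in Smox AOM NT and 817 to 1290 in Smox AOM T. The part of either list in the Cxcl12 difference was not tested.

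Receptors of B cells and lymphoid follicles were also lower in tumors, but 1 library set much of their size. Cxcr5, the receptor for CXCL13 that leads B cells into follicles, was 0.18, 5.33 and 0.0317 CPM in WT AOM Spd NT and 0, 0.131 and 0.0614 in the tumors, and 2.5, 0.881 and 0.798 in Smox AOM NT and 0.0733, 0.0308 and 0.384 in the tumors. It fell 15.5-fold (SE 1.08, adjusted p = 0.00464), and without WT AOM Spd NT replicate 2 the log2 difference went from -3.96 to -1.94 (adjusted p = 0.11), and without Smox AOM T replicate 3 to -4.73. The calls of Cxcr5 and Ccr6 within WT AOM Spd mice were lost without WT AOM Spd NT replicate 2 (adjusted p = 0.73 and 0.286). Ccr6, the receptor for CCL20 on B cells and T cells, was counted only 4 times in all WT AOM Spd T libraries and fell 21.3-fold (SE 1.04, adjusted p = 0.00156), from -4.41 to -3.14 on the log2 scale without WT AOM Spd NT replicate 2 and still called (adjusted p = 0.0157), and to -5.50 without Smox AOM T replicate 3 and -5.02 without WT AOM Spd T replicate 2. Ccr4 fell 2.88-fold (SE 0.58, adjusted p = 0.0348) and was not called without WT AOM Spd NT replicate 2 (adjusted p = 0.182). Of 12 B and plasma cell genes, 11 were lower and 1 higher in tumors (23.9% and 23.5% of all genes). Ms4a1, which encodes the B cell antigen CD20, ran from 0.254 to 10.1 CPM in WT AOM Spd NT and from 0 to 0.046 in WT AOM Spd T. The summed list ran from 215 to 356 CPM and from 368 to 479 in those groups, most of it Sdc1, which had a median of 283 CPM. The part of B cells in these differences was not tested.

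Ccr7, Ccl19 and Cxcl13, which organise lymphoid tissue, were not called anywhere by edgeR. Ccr7 held 18.8 CPM and Ccl19 12.3 in Smox Spd replicate 1, against at most 2.77 and 1.60 in any other library. Cxcl13 was highest in WT AOM NT replicate 1, at 31.8 CPM, and its spermidine difference is given below.

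The atypical receptors moved apart. Ackr3, which scavenges CXCL12, rose 3.97-fold in tumors (SE 0.43, adjusted p = 0.000841), at 15.2, 15.1 and 18.1 CPM in WT and 20.3, 16.7 and 7.8 in Smox tumors against 1.84 to 7.92 in 6 non-tumor libraries. Ackr3 averaged 5.41, 3.32, 4.18 and 2.66 CPM in WT untreated, Spd, AOM NT and AOM Spd NT libraries, 6.98, 3.77, 5.7 and 5.56 CPM in the Smox libraries of those states, and 16.1 and 14.9 CPM in WT AOM Spd T and Smox AOM T. Ackr4, which scavenges CCL19, CCL21 and CCL25, fell 4.15-fold (SE 0.56, adjusted p = 0.00467), and the log2 difference went from -2.05 to -1.25 without Smox AOM NT replicate 2, at 8.62 CPM (adjusted p = 0.0442). Ackr4 averaged 3.46, 1.54, 0.883 and 0.699 CPM in WT untreated, Spd, AOM NT and AOM Spd NT libraries, 1.84, 2.63, 3.68 and 2.56 CPM in the Smox libraries of those states, and 0.331 and 0.449 CPM in WT AOM Spd T and Smox AOM T. Ackr2, which scavenges inflammatory CC ligands, fell 2.31-fold with AOM-DSS (SE 0.28, adjusted p = 0.0048), from a median of 1.17 to 0.541 CPM, under each library left out too. In Smox AOM mice alone Ackr4 fell 8.19-fold (SE 0.81, adjusted p = 0.013), and without NT replicate 2 the log2 difference of -3.03 was -1.42 (adjusted p = 0.173), and without tumor replicate 3 it was -3.85. Ackr1, a chemokine-binding receptor of venules and red cells, was not called, nor were Xcr1, the receptor of lymphotactin on dendritic cells, at 0.137 CPM and Ccr8 at 0.0482 CPM on average.

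Spermidine called no member on average over 12 against 12 libraries by edgeR (0% of all genes; 9 members at unadjusted p under 0.05 against 2448 of 19558 genes; 2 by DESeq2). Estimates were negative for 41 of 56 members, with a median of -0.49 against -0.01 over all genes. The 9 were Pf4, Ccl2, Cxcl13, Ccl20, Ccr1, Ccr10, Ccr2, Ackr1 and Ackr2, all with lower estimates with spermidine. Cxcl13 had the smallest p: its log2 difference was -1.61 (SE 0.43, unadjusted p = 0.0011, adjusted p = 0.163). In Smox AOM mice it was 16.7, 7.69 and 5.15 CPM without and 1.22, 0.517 and 0.901 with spermidine, without overlap. The other 3 pairs of groups overlapped: 1.2, 2.57 and 4.23 against 1.04, 2.99 and 1.69 in WT, 6.04, 6.74 and 3.77 against 7.86, 1.57 and 1.52 in Smox, and 31.8, 9.54 and 5.7 against 3.22, 9.09 and 0.508 in WT AOM NT. No member was called for spermidine in WT (0.00511% of all genes, 3 at unadjusted p under 0.05, 2 by DESeq2), Smox (0%, 10 and 0), WT AOM NT (0%, 2 and 0) or Smox AOM NT (0%, 6 and 1) mice.

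Genes that act beside the receptors were read from a list of 24 that signal behind them or trim chemokines. In Smox 4 were higher and 0 lower (5.78% of all genes called), with AOM-DSS 2 were higher and 4 lower (20.9%), in tumors 9 were higher and 4 lower (47.3%), and with spermidine 0 passed (0%). The AOM-DSS and tumor shares of the list lay near those of all genes. Their median log2 differences were 0.256, -0.07, 0.0564 and -0.07 in that order, while those over all genes were 0.0305, 0.0049, 0.0047 and -0.01.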

How the data were processed

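The authors deposited estimated counts per gene, whole numbers in the table, for 30 libraries. The submitters' processing notes name fastp, Salmon, DESeq2 and GRCm38, and versions, settings and scaling are not given in the sources used here. Depth was 33060607 to 81011304 counts per library, and counting error only is covered by it. The design text says 3 mice per group, and p-values measure the spread between these samples. The test was that of edgeR 4.0.16 (R 4.3.3) on these counts: filterByExpr with a minimum count of 10, TMM scaling, and 1 quasi-likelihood model with a mean per group over all libraries, in 21 comparisons (20 residual degrees of freedom, threshold 0.05 after Benjamini-Hochberg adjustment). The procedure was tested on simulated data. Gene positions come from GENCODE M21, which held all 60 identifiers (58 in the same version). Alternatives were RLE scaling, no filter, DESeq2 1.42.0, only the groups compared, leaving out each library in turn or both atypical libraries (WT untreated replicate 3 and Smox AOM Spd NT replicate 1), and a genotype average over 3 states added after seeing the data.

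The members, gene lists and tests were chosen with earlier results of these data known. The rule for named genes took every called member of a comparison or, where more than 10 were called, the 6 largest rises and 4 largest falls at 1 CPM or more, with the 2 most abundant members of each role and members whose highest group was at least 5 times the lowest. The other called members were named outside that rule, after their values were seen. Results of 1 member are not reported here, though counts over the family include it.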

Additional observations from a re-analysis of the deposited data

How the results depend on the processing

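No called value of a named gene changed direction under any alternative run. Leaving out 1 library ended a call in 296 of 1098 refits of called genes. Calls of single members were lost in 1 case with RLE scaling (80 kept), 21 without the filter (60 kept) and 18 with only the groups compared (57 kept). Without both atypical libraries 19 were lost and 16 kept, and over the 3 treated states 10 were lost and 4 kept. With DESeq2 none was lost (81 kept). The settings did not all cover the same calls. Counts of called members ran, leaving out 1 library at a time, from 5 to 14 for AOM-DSS on average, 6 to 22 for genotype on average, 16 to 29 for tumor on average, 0 to 9 for genotype in untreated mice, 0 to 2 for AOM-DSS in WT, 0 to 0 for AOM-DSS in WT with spermidine (1 with all libraries), 0 to 12 for tumor in Smox AOM and 9 to 15 for tumor in WT AOM Spd mice, and stayed at 0 in the other comparisons. RLE scaling left every count within 1.5 times. DESeq2 called 25 members for genotype on average, 20 in untreated mice, 2 each for genotype with spermidine and after AOM-DSS, 2 for spermidine on average and 2 in WT, 1 for spermidine in Smox AOM mice, 7 for AOM-DSS in WT, 1 in Smox, 3 in WT with spermidine and 3 in Smox with spermidine, 2 between the tumor groups, and 1 for genotype by AOM-DSS. Without the filter the counts were 7 for AOM-DSS on average, 4 for genotype in untreated mice, 0 for AOM-DSS in WT with or without spermidine, and 2 for tumor in Smox AOM mice. With only the groups compared they were 0 for genotype in untreated mice, 0 for AOM-DSS in WT and 4 in WT with spermidine. Without both atypical libraries they were 7 for AOM-DSS on average, 0 for genotype in untreated mice and 0 for AOM-DSS in WT. The genotype average over 3 states called 5. The causes of these changes were not tested. Members under 1 CPM rest on few counts, and 3 libraries per group limit every comparison of single groups. No paired analysis was possible because the labels give no numbers or animals shared between groups.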
